A study of Mus musculus with 15 samples.

Results

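The step from embryonic stem (ES) cells to embryoid bodies was followed here in mouse cells that carry hairpin 33 against Cbx7. The 4 arrays titled EB9 KD33 were set against the 4 arrays titled ES KD33, which made 8 of the 15 arrays in the series. Control cells taken over the same step gave the other 7 arrays, 3 of ES cells and 4 of EB9, and served as the comparison. The KD33 groups are labelled as depleted of Cbx7, and the control groups carry no treatment in their sample labels, although the study's text calls the ES controls shCtr. KD33 is 1 hairpin, so no spread between hairpins enters any value. The embryoid bodies are titled EB9, and neither their culture nor the parent ES line is described further in the sources used here. All arrays are titled biological replicates. Whether they came from separate cultures is not stated, so p-values weigh a difference only against the spread between these arrays.

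ES cells are held in a self-renewing, pluripotent state by a network of transcription factors around Pou5f1 (Oct4), Sox2 and Nanog, in culture usually with the help of the cytokine LIF. When they aggregate into embryoid bodies without that support, the network shuts down and cells of the 3 germ layers and of the extraembryonic endoderm appear in an order that recalls the early embryo. Cbx7 is a chromodomain subunit of canonical Polycomb repressive complex 1, which binds the histone mark set by Polycomb repressive complex 2 and keeps developmental genes silent. In ES cells Cbx7 is the main subunit of its kind, and other Cbx proteins take its place as cells differentiate.

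RNA from 500 ng per sample was labelled with Cy3 and read on 1-colour Agilent arrays, of which between 62.5% and 75.4% of the features lay well above background and none was saturated. A level is the log2 signal minus the array's own 75th percentile, so a level of 0 marks a gene whose probe is as bright as that percentile. Levels of different genes cannot be compared, since each comes from its own probe. The brightest probe stood for a gene, and 21184 genes were tested together in limma; a gene was called at a Benjamini-Hochberg adjusted p under 0.05. The 4 slides left a mark on the arrays: ES KD33 and EB9 KD33 arrays of the same number shared a slide, and their deviations from the group mean correlated. Each group also sat at 1 fixed position on every slide, which means that group and position cannot be told apart. EB9 control 2 had the greatest share of features above background, and EB9 KD33 1 and 2 were the least alike pair among the KD33 arrays (r = 0.9874 across genes). Without EB9 KD33 2 the change of the KD33 cells comprised 7085 genes higher and 9206 lower.

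The hairpin's target gave a weak reading in every group. Probe A_55_P1980401 in Cbx7 (mm9 chromosome 15, 79746240 to 79746299) read −7.85, −4.44, −4.61 and −7.37 on the ES KD33 arrays and −8.47, −5.78, −5.92 and −8.57 on the EB9 KD33 arrays. ES controls gave −6.3, −3.14 and −3.04, and EB9 controls gave −8.16, −5.42, −5.4 and −8.69. The KD33 levels split by slide, low on slides 1 and 4 and higher on slides 2 and 3, so the groups overlapped, and in each KD33 group 2 of 4 arrays measured it well above background. Its change from ES KD33 to EB9 KD33 was −1.12 (SE 1.14, adjusted p = 0.385). Within slides it was lower in EB9 KD33 by −0.62, −1.34, −1.32 and −1.2, and with a slide term the adjusted p was 5.05e-05. The other Cbx7 probe, A_55_P1980408 (79748605 to 79748664), annotated in the files to a cDNA clone, changed by −0.38 (SE 0.22, adjusted p = 0.13, or 0.0138 with a slide term). Against controls, the first probe differed by −1.91 in ES KD33 (adjusted p = 0.256) and −0.27 in EB9 KD33 (0.92). The other differed by −0.13 (0.733) and −0.16 (0.708). Neither probe was thus called lower in KD33 cells at either stage, in tests without a slide term. Within slides 1, 2 and 3, which hold the ES controls, the first probe was lower in ES KD33 each time. The other was lower in ES KD33 on slides 2 and 3 and higher on slide 1. In EB9 both probes were lower in KD33 on slides 1, 2 and 3 and higher on slide 4.

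The passage from ES cells to EB9 changed most of the genes measured in the KD33 cells. Of 21184 genes tested, 16503 were called (77.9%), 7147 higher in EB9 KD33 (33.7%) and 9356 lower (44.2%). By at least 2-fold, 3908 genes rose (18.4%) and 4919 fell (23.2%); by at least 4-fold, 1956 rose (9.23%) and 2230 fell (10.5%). The arrays of the KD33 groups did not overlap for 15713 genes (74.2%), and 16302 of the called genes changed in the same direction on all 4 slides. The median change of all genes was −0.18 on this scaling and −0.058 in the authors' deposited table, and medians of gene groups are to be read against it. Counts of list members that rose or fell are likewise to be read against the 33.7% and 44.2% of all genes. In bulk samples such as these, fewer cells of a type and less RNA per cell cannot be told apart.

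Genes of the pluripotency network fell. Of the 35 measured members 34 fell and none rose, with a median change of −3.32, and Spry4 was the member not called, at −1.59 (adjusted p = 0.0955, or 4.87e-05 with a slide term, which calls all 35). Pou5f1, the transcription factor at the centre of the network, read 4.1, 4.3, 4.24 and 4.35 in ES KD33 and −0.44, 0.18, −0.18 and −0.26 in EB9 KD33 (probe A_51_P202340, chromosome 17, 35647280 to 35647340). The 2 groups were far apart, a fall of 4.42 (SE 0.11, adjusted p = 5.11e-13), or 21.4-fold. Esrrb, an orphan nuclear receptor of the naive state, read 5.79, 5.73, 5.6 and 5.73 in ES KD33 and 0.24, 0.22, 0.06 and 0.36 in EB9 KD33. It thus fell 45.1-fold, by more than Pou5f1, and its 4 EB9 KD33 arrays lay within 0.3 of one another.

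Klf4, a reprogramming factor that LIF sustains, fell by 3.57 in KD33 cells, from 3.32, 3.43, 3.28 and 3.27 to −0.43, −0.17, −0.17 and −0.21. The groups were far apart, and the fall was smaller than in control cells (difference 0.85, SE 0.13). Klf4 had started lower in ES KD33 than in ES control.

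Other members went the same way. Nr0b1 (Dax1), an orphan receptor that pairs with Pou5f1, fell by 6.01, the greatest fall on the list. Fgf4, the growth factor that readies ES cells for lineage choice, fell by 5.93, Zfp42 (Rex1), the classic marker of undifferentiated cells, by 5.24, and Sox2 by 3.43. The brightest Nanog probe fell by 4.66, from 5.23 ± 0.1 to 0.57 ± 0.13 (SD, n = 4 each). A dimmer Nanog probe, A_55_P2007699, rose by 1.57 (adjusted p = 1.56e-06), so the gene's probes disagree. These 5 genes, Pou5f1 and Esrrb were still well above background on all 4 EB9 KD33 arrays. Over the list of 35, the change was more positive in KD33 cells for 13 and more negative for 4 (12.7% and 17% of all genes). Of those 13, 9 were lower in ES KD33 than in ES control, and 6 were higher in EB9 KD33 than in EB9 control. At the end 11 of 35 were higher in EB9 KD33 and 4 lower, where 7.96% and 7.2% of all genes were.

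Genes of LIF signalling fell as well. Of the 9 measured 7 fell and 1 rose, where 44.2% of all genes fell and 33.7% rose. Socs3, the feedback inhibitor that LIF induces through Stat3, read 4.98, 5.05, 4.98 and 4.89 in ES KD33 and 2.14, 2.35, 2.23 and 2.34 in EB9 KD33. The groups were well apart, a change of −2.71 (SE 0.07), against −3.54 in control cells (difference 0.83, adjusted p = 5.88e-05). Gbx2, a homeobox target of the same pathway, fell by 4.38, and Il6st (gp130), the signal-transducing receptor chain, rose by 0.95. The change was called more positive in KD33 cells for 3 of the 9, Klf4 and Socs3 among them, and more negative for none. Over all genes 12.7% and 17% had such differences. All 3 were lower in ES KD33 than in ES control, and 1 of them was called higher in EB9 KD33 than in EB9 control.

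**Figure D1:**
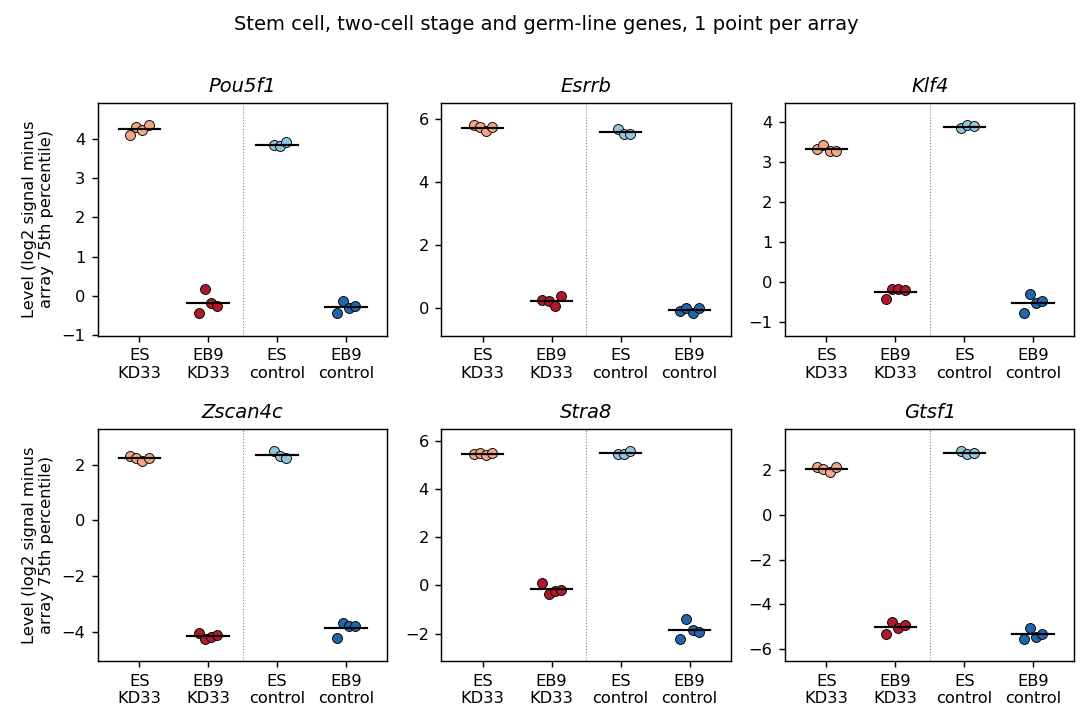
Level of 6 genes in the 4 groups, in log2 signal minus the array's 75th percentile, with 1 point per array and a bar at the group mean; axes differ between panels. All 4 EB9 KD33 arrays lay below all 4 ES KD33 arrays for each gene, and for Stra8 the EB9 KD33 arrays (−0.36 to 0.1) stayed above the EB9 controls (−2.21 to −1.38).

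Genes of the 2-cell embryo, which flicker on in a few ES cells at a time, fell as a group. All 11 measured members were lower, with a median change of −5.25, or −4.81 with the 2 members that no EB9 KD33 array measured taken at their bounds. Zscan4c, the emblem of this state, read 2.31, 2.26, 2.12 and 2.26 in ES KD33 and −4.04, −4.26, −4.18 and −4.12 in EB9 KD33. The arrays of each group were within 0.3 of one another and the drop was 83.7-fold (SE 0.11 on the log2 scale). The Zscan4 genes are close copies of each other, so a probe may read several of them. The Zscan4c promoter is shown because this gene had the greatest fall among the key members of all lists. The 250 bases before its RefSeq start (GRCm38.p6, chr7:11005495-11005744, plus strand) hold the letters TATAAA and CCAAT near the start, in capitals, and 3 CG pairs. Whether these letters act as promoter elements was not tested.
Zscan4c: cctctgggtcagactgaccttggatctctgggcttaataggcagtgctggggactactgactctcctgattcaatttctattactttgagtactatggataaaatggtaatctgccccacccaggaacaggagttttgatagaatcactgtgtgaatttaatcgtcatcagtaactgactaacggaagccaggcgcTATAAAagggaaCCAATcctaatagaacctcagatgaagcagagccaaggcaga
Among the 13271 tested genes with such a window, 62.6% of all tested, the median was 14 CG pairs (quartiles 6 and 21). TATAAA, read on both strands, stood in 8.02% of the windows, GGGCGG in 53.9% and CCAAT in 36.1%.

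Germ-line genes, some of which mouse ES cells express, fell too. Of 23 measured members 20 fell and none rose, with a median change of −3.22. The change was more positive in KD33 cells for 5 and more negative for 3 (12.7% and 17% of all genes). At the end 7 of 23 were higher in EB9 KD33 than in EB9 control and 1 lower, where 7.96% and 7.2% of all genes were. Tuba3a, a testis tubulin whose copies the probe may share, fell by 6.89, and Hormad1, a meiotic chromosome protein, fell from −2.52 ± 0.09 to below background on every EB9 KD33 array. Dazl, an RNA-binding protein of germ cells, fell by 3.85. Ctcfl (Boris), the germ-line paralog of the insulator protein CTCF, and Gtsf1, a partner of Piwi proteins, were among the 12 greatest falls ranked. The ranking covered called genes with an established symbol. Ctcfl was at least 53.6-fold lower and Gtsf1 lower by 7.09. Ucp1, the uncoupling protein of brown fat, fell at least 43.2-fold.

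Stra8, the retinoic acid target that opens meiosis, fell less far in KD33 cells than in control cells. It read 5.46, 5.47, 5.4 and 5.48 in ES KD33 and 0.1, −0.36, −0.21 and −0.17 in EB9 KD33, and 5.45, 5.44 and 5.56 in ES controls but −2.21, −1.38, −1.84 and −1.93 in EB9 controls. The ES groups overlapped, and the EB9 groups did not. The changes were −5.61 and −7.32, a difference of 1.71 (SE 0.21, adjusted p = 7.49e-05), and EB9 KD33 ended higher by 1.68 (adjusted p = 4.84e-05). Its window is shown as that of the key gene with the greatest positive difference between the changes (GRCm38.p6, chr6:34920698-34920947, plus strand). CCAAT on either strand is in capitals, and the window has 5 CG pairs.
Stra8: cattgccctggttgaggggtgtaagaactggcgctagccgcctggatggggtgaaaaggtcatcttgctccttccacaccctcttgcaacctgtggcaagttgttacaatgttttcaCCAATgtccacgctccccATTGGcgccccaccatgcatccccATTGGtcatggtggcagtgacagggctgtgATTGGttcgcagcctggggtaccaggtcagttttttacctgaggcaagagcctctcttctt

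The clustered X-linked Xlr and Rhox genes were all lower in EB9 KD33, 13 of 13 measured, with a median change of −4.19 (−3.91 with 3 members at their bounds). Rhox10, a homeobox gene of this cluster, fell by 6.2. Of the 13 genes, 10 were already lower in ES KD33 than in ES control and 2 higher (16.5% and 22% of all genes). At the end 9 were lower in EB9 KD33 than in EB9 control and none higher, where 7.2% of all genes were lower. Xlr5a and Xlr5c started lower in ES KD33 than in ES controls, by −3.98 and −4.11, and neither was above background in EB9 KD33. Their falls of −3.55 and −5.71 were smaller than the −6.82 and −8.21 of the control cells (adjusted p = 0.002 and 0.00267 for the differences), which rest on EB9 values near or below background. These genes are near-copies of one another, so their probes may not be specific.

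Genes of mesenchyme and its matrix had the greatest median rise of the lists. Of 24 measured members 22 rose and 1 fell, with a median change of 4.21 (4.04 with 7 members at their bounds). Col3a1, the chain of type III collagen, had the greatest rise of the called genes with an established symbol (probe A_51_P515605, chromosome 1, 45405589 to 45405648). It read −8.75, −8.71, −9.12 and −8.64 in ES KD33, below background on every array, and 5.56, 4.06, 5.05 and 5.18 in EB9 KD33. That is at least 3070-fold (fitted change 13.77, SE 0.28, adjusted p = 7.4e-14). Its window, shown as that of the key gene with the greatest rise (GRCm38.p6, chr1:45311288-45311537, plus strand), has no CG pair, as did 2.39% of all windows, and 1 TATAAA in capitals.
Col3a1: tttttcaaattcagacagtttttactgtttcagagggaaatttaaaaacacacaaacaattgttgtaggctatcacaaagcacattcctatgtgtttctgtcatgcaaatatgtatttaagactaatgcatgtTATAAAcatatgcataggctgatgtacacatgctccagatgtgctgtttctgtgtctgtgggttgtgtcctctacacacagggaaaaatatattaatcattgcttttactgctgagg
Postn (periostin), a matrix protein of heart valves and bone, rose at least 2490-fold and Lum (lumican), a collagen-binding proteoglycan, at least 387-fold. Col1a1, the main chain of type I collagen, rose 176-fold and was tight across arrays, from −2.38 ± 0.09 to 5.08 ± 0.08. Thy1, a surface glycoprotein of many stromal cells that ES cells also carry, was the member that fell, by 4.64.

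Genes of blood rose. Of 23 measured genes of blood progenitors and red cells 19 rose and 1 fell, with a median change of 4.09 (3.73 with 4 members at their bounds). Hbb-bh1, the embryonic beta-like globin of primitive red cells, read −5.15, −5.73, −4.49 and −5.36 in ES KD33 and 7.4, 6.61, 7.36 and 7.5 in EB9 KD33. The rise was 5400-fold, or 12.4 (SE 0.29), and EB9 KD33 2 lay below the other 3 arrays. Hbb-y, another embryonic beta-like globin, rose by 11.08. Hba-x, the embryonic alpha-like globin, rose at least 1900-fold, and Alas2, the first enzyme of haem synthesis in red cells, at least 364-fold. Globin genes are related in sequence, and the probes may share signal.

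The transcription factors of blood were measured too. Gata1, the master factor of red cells, read −0.68, −0.78, −0.93 and −0.81 in ES KD33 and 1.7, 0.32, 1.37 and 1.48 in EB9 KD33, a 4.04-fold rise without overlap in which EB9 KD33 2 was again the lowest. Myb, a factor of definitive progenitors, was the member that fell, by 1.6, against a fall of 0.5 in control cells (difference −1.11, adjusted p = 0.000202).

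Endothelial genes rose. Of 20 measured members 18 rose and 1 fell, with a median change of 3.51. Cdh5 (VE-cadherin), the junction protein of endothelial cells, read −8.69, −8.7, −4.75 and −8.57 in ES KD33 and 0.91, 0.86, 1.09 and 0.98 in EB9 KD33. ES KD33 3 stood apart from the other ES KD33 arrays, and was the only one of them well above background. The groups did not overlap, and the fitted change of 8.64 (SE 0.69) rests on 3 ES KD33 values not above background. Fli1, an Ets factor of endothelium and blood, rose at least 101-fold. Kdr (Flk1), the VEGF receptor of their common precursor, has probes that disagree in size. The brightest rose by 0.93, from 0.4 ± 0.37 in ES KD33, and the other, A_51_P316553, rose by 6.71 (adjusted p = 1.32e-15).

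**Figure D2:**
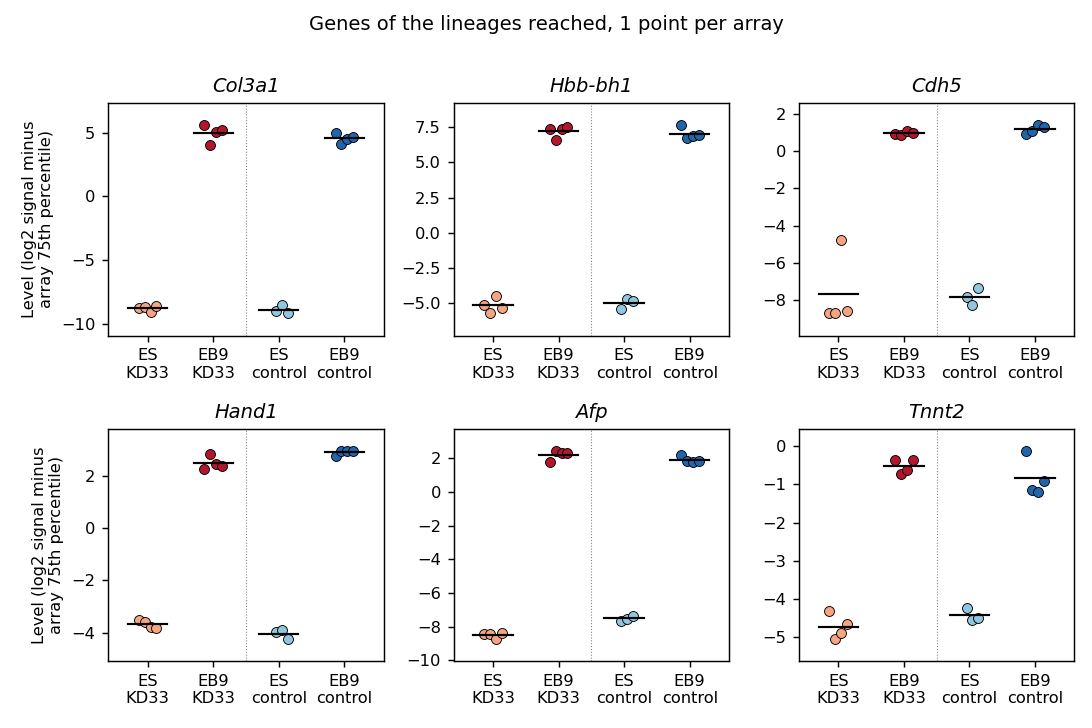
Level of 6 genes of the lineages reached, in log2 signal minus the array's 75th percentile, with 1 point per array and a bar at the group mean; axes differ between panels. For each gene the 4 EB9 KD33 arrays lay above the 4 ES KD33 arrays, as did the controls; Col3a1 and Afp were below background on every ES KD33 array.

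Lateral plate and intermediate mesoderm rose in 13 of 17 measured members and fell in 3, with a median change of 3.98 (3.01 with 4 members at their bounds). Hand1, a factor of extraembryonic and lateral mesoderm, read −3.51, −3.6, −3.77 and −3.83 in ES KD33 and 2.26, 2.84, 2.47 and 2.4 in EB9 KD33. It rose 72-fold in KD33 cells and ended lower than the EB9 controls by −0.42 (adjusted p = 0.0348), although the EB9 ranges overlapped, since EB9 KD33 2 lay above EB9 control 1 at 2.76. Its partner gene Hand2 rose by 7.52. Both rises were smaller than in control cells, by −0.78 (adjusted p = 0.00502) for Hand1 and −1.09 (adjusted p = 0.000368) for Hand2. The EB9 levels of Hand2 were not called different (−0.14, adjusted p = 0.462), and Hand2 had started higher in ES KD33 by 0.95.

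Cardiac genes were mixed. Of 23 measured members 15 rose and 5 fell, with a median change of 1.59, where 33.7% of all genes rose and 44.2% fell. Tnnt2, cardiac troponin T, read −4.32, −5.05, −4.89 and −4.65 in ES KD33 and −0.35, −0.74, −0.62 and −0.37 in EB9 KD33, an 18.5-fold rise without overlap. Actc1, cardiac actin, rose at least 70.5-fold, and Tbx20, a heart factor, at least 59.2-fold. Nkx2-5, the early cardiac factor, changed little: it read −2.83, −2.56, −2.63 and −2.75 in ES KD33 and −2.7, −2.37, −2.16 and −2.29 in EB9 KD33. These groups overlapped (change 0.31, SE 0.11, adjusted p = 0.0222), and the call was lost without ES KD33 1 (adjusted p = 0.0646), ES KD33 4 (0.0519), EB9 KD33 3 (0.0741) or EB9 KD33 4 (0.0576). In control cells it rose by 1.35, from a lower ES level, and the EB9 levels were not called different (difference −0.04, adjusted p = 0.871). Myl2, the light chain of mature ventricular muscle, fell by 4.5 and was above background on 1 EB9 KD33 array.

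Among muscle genes of other kinds, 8 of 14 rose and 5 fell, where 33.7% of all genes rose and 44.2% fell. Acta2, smooth muscle actin, rose by 9.63, and Mylpf, a light chain of fast skeletal muscle, fell at least 6.4-fold to below background.

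Genes of each kind of endoderm rose. Visceral endoderm, the absorptive layer around the early embryo, rose in 19 of 24 measured members and fell in 5, with a median change of 3.68 (3.39 with 7 members at their bounds). Afp (alpha-fetoprotein), its best-known secreted product, read −8.41, −8.41, −8.72 and −8.38 in ES KD33, all below background, and 1.79, 2.42, 2.3 and 2.3 in EB9 KD33, at least a 453-fold rise. The control rise was at least 434-fold. Ttr (transthyretin), a carrier of thyroid hormone and retinol-binding protein, rose at least 128-fold, with EB9 KD33 levels as far apart as −0.66 and 1.28. Trf (transferrin) fell by 3.27.

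Parietal endoderm, which lays down a thick basement membrane, rose in 10 of 12 measured members and fell in none (1 with array weights or without EB9 KD33 2), with a median change of 2.33. Thbd (thrombomodulin), a surface protein of that layer, rose at least 39.4-fold. Definitive and gut endoderm rose in 13 of 16 and fell in 1, where 33.7% of all genes rose and 44.2% fell. Foxa2, a pioneer factor of endoderm, rose by 4.48, and Cdx2, a homeobox factor of hindgut and trophoblast, by 4.52. Sox17, a factor of endoderm and haemogenic endothelium, rose by 2.01 in KD33 and 2.77 in control cells, a difference of −0.76 (adjusted p = 0.005, or 0.0528 with the kept probes of a gene averaged). Pdx1, a factor of the pancreas, fell by 2.3.

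Epithelial genes of simple type rose in 9 of 16 measured members and fell in 4, where 33.7% of all genes rose and 44.2% fell. Krt8, a keratin of simple epithelia, rose by 4.55, whereas Cdh1 (E-cadherin), which holds ES cells together, fell by 2.58. Of 12 measured trophoblast genes 5 were higher and 4 lower, where 33.7% of all genes were higher and 44.2% lower. Plac1, a placental surface protein, rose by 9.15, and Prl3d1 (placental lactogen 1), the product of giant cells, changed by 0.88 and stayed dim.

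Several programmes had a median change at or below that of all genes. Of 22 measured genes of neurons 15 fell and 4 rose, where 44.2% of all genes fell and 33.7% rose. The median change was −1.35 against −0.18 for all genes. Stmn2 (SCG10), a microtubule regulator of growing axons, read 2.37, 2.48, 2.39 and 2.37 in ES KD33 and −1.76, −0.51, −1.3 and −1.36 in EB9 KD33, a 12.4-fold fall without overlap. Tubb3, neuronal tubulin, fell by 2.21 and Elavl3 (HuC), a neuronal RNA-binding protein, by 4.58. Gap43, a growth cone protein, rose by 2.67. Control cells did likewise, with 12 of 22 lower and 4 higher.

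Neural progenitor genes fell in 7 of 16 and rose in 5, shares near those of all genes (44.2% lower and 33.7% higher). Sox1, the earliest factor of the neural plate, fell by 1.85 in KD33 and 1.81 in control cells (difference −0.04, adjusted p = 0.966). Pax6, of forebrain and eye, fell by 1.21, and En2, of the midbrain, by 3.58. Nes (nestin), an intermediate filament of progenitors that other young cells share, rose by 0.86. The change was called different from control cells for 7 of these 16 genes, always towards the lower side (17% of all genes tested were called lower in that test), and in each of the 7 the ES KD33 level was above the ES control level.

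Neural crest and glia fell in 5 of 9 and rose in 2, with Sox10, the crest's defining factor, lower by 0.7. Surface ectoderm fell in 7 of 13 and rose in 3. Of all genes 44.2% fell and 33.7% rose. Krt15, a basal keratin, rose at least 8.87-fold and stayed dim at −3.47 ± 0.11.

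Paraxial mesoderm, the source of somites, fell in 7 of 16 and rose in 4, with a median change of −0.34; the share that fell is near the 44.2% of all genes. Meox1, a somite factor, rose by 1.57 to a low −4.17 ± 0.26, and Dll1, the Notch ligand of the segmentation clock, fell by 3.03. In control cells 6 fell and 5 rose.

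Set beside the control cells, the change of the KD33 cells went in the same direction for most genes. In control cells 15837 genes were called (74.8%), 7044 higher in EB9 (33.3%) and 8793 lower (41.5%). Of 3827 genes that rose at least 2-fold there (18.1%), 3741 rose in KD33 cells, 8 fell and 78 were not called. Of 4609 that fell at least 2-fold (21.8%), 4378 fell in KD33 cells, 13 rose and 218 were not called. Across genes the 2 changes correlated at r = 0.951 with a slope of 0.934 for KD33 on control. The 2 comparisons share no array but do share slides, and genes are not independent.

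**Figure D3:**
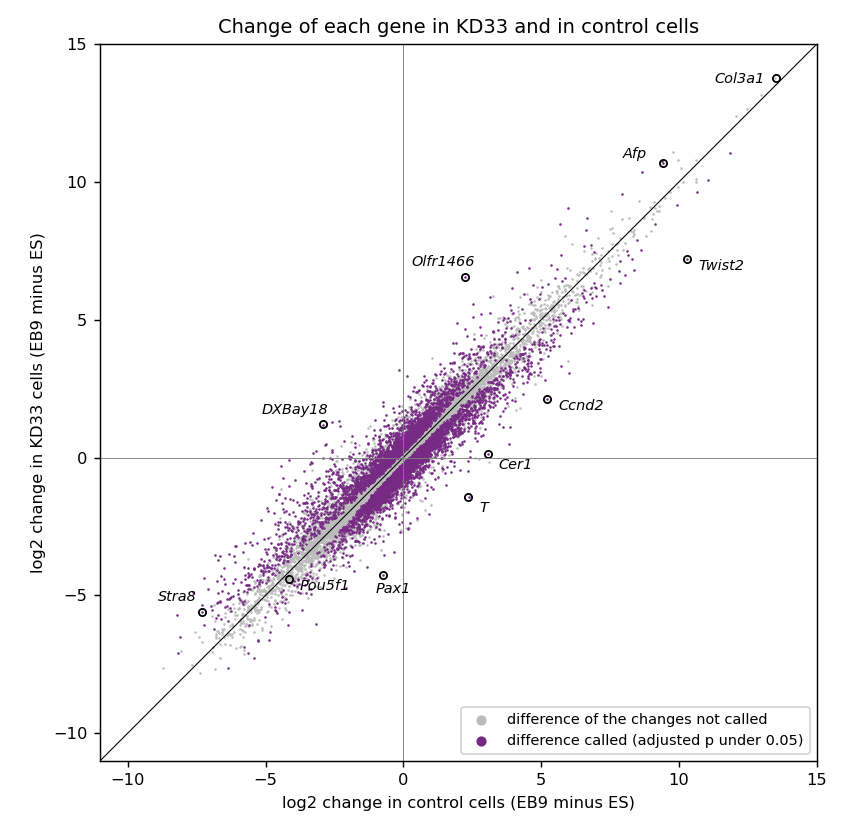
The log2 change of each of the 21184 genes in KD33 cells (vertical) against control cells (horizontal), with the line of equal change. Purple points mark the 6291 genes whose changes were called different; circled genes are named in the text, T and Cer1 below the line and DXBay18 and Olfr1466 above it.

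For a smaller set the changes differed. The difference between the changes was called for 6291 genes (29.7%), 2692 with a more positive change in KD33 cells (12.7%) and 3599 with a more negative one (17%). By at least 2-fold it was 674 (3.18%) and 460 (2.17%). With normexp background correction and quantile normalisation these became 311 and 172. For 4177 of the 6291 genes the ES levels were called different and the EB9 levels were not, for 760 the reverse held, for 947 both were called and for 407 neither. With a slide term in each call these were 4950, 1326, 1956 and 450 of 8682 genes; a missing call does not show that levels were equal. At the end of the step 3211 genes (15.2%) differed between EB9 KD33 and EB9 control, or 5664 with a slide term (26.7%); 1686 were higher in EB9 KD33 (7.96%) and 1525 lower (7.2%). ES KD33 and ES control differed for 8147 (38.5%), 4654 higher in ES KD33 (22%) and 3493 lower (16.5%). Genes called in opposite directions by the 2 changes, with the difference called, numbered 361, of which 217 fell in KD33 cells and rose in control cells and 144 did the reverse.

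The primitive streak is the site where mesoderm and endoderm arise. In KD33 cells 8 of 18 measured members rose and 6 fell, against 10 and 3 in control cells, with medians of 0.32 and 1.14. The change was more negative in KD33 cells for 7 and more positive for 2. Over all genes 33.7% rose and 44.2% fell in KD33 cells, and 17% and 12.7% had such differences. At the end 9 of 18 were lower in EB9 KD33 than in EB9 control and none higher, where 7.2% of all genes were lower. Mixl1, Wnt3a and Msgn1 were on the list and had no probe that passed the filter.

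T (brachyury), the T-box factor that defines the streak, had the greatest negative difference of the called genes with an established symbol (probe A_55_P2029161, chromosome 17, 8635302 to 8635361). It read −3.33, −3.27, −3.21 and −3.27 in ES KD33 and −4.39, −3.78, −5.32 and −5.37 in EB9 KD33. In controls it gave −4.3, −4.38 and −4.15 before the step and −2.76, −1.04, −1.95 and −1.92 after it. The ES and EB9 arrays of each kind of cell did not overlap, nor did the EB9 groups, and T went down in KD33 cells on all 4 slides while it went up in control cells: −1.44 (SE 0.36, adjusted p = 0.00256) against 2.36. The difference of −3.8 (SE 0.54, adjusted p = 0.000211) left EB9 KD33 lower than EB9 control by −2.79 (adjusted p = 0.000484), although ES KD33 had started higher by 1.01. The window before T (GRCm38.p6, chr17:8434173-8434422, plus strand), shown as that of the key gene with the greatest negative difference, has 14 CG pairs, the median number. In capitals are GGGCGG on the minus strand (CCGCCC, overlapping 1 CCAAT at the first site) and CCAAT.
T: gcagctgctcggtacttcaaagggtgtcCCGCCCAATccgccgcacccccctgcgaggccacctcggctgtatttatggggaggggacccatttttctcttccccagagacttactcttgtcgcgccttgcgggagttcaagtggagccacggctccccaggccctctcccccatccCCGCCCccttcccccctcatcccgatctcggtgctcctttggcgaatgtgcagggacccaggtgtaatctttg

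Cer1 (Cerberus), a secreted inhibitor of Nodal, BMP and Wnt from the anterior endoderm, rose above background in control cells and not in KD33 cells. It read −8.98, −9.18, −7.98 and −9.02 in EB9 KD33, below background on every array, as it was in ES cells of both kinds. EB9 controls read −4.64, −4.79, −5.68 and −5.99, above background on all 4 arrays. They were at least 2.83-fold above EB9 KD33 (adjusted p = 0.000199), and the difference of the changes was −2.95 (SE 0.58, adjusted p = 0.00206). Gsc (goosecoid), a factor of the anterior streak, fell by 3.05 in KD33 and 1.63 in control cells (difference −1.43, adjusted p = 0.0055).

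Not all of the list followed. Eomes, the T-box factor of streak and definitive endoderm, changed by 0.22 in KD33 cells (adjusted p = 0.081, or 0.0125 with a slide term) and −0.02 in control cells, and EB9 KD33 lay lower than EB9 control by −0.89 (adjusted p = 0.000317), as ES KD33 had by −1.13. Mesp2, a somite factor, fell in both, by 3.83 and 4.2. Pdgfra, the receptor that marks mesoderm leaving the streak, rose by 6.52 in KD33 cells and 5.51 in control cells (difference 1.01, adjusted p = 2.66e-05).

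Genes of the primed epiblast, the stage just after the naive one, rose in 6 and fell in 6 of 13 in KD33 cells, against 9 and 2 in control cells. The difference was called towards the lower side for 7 and the higher for 1, and at the end 6 of 13 were lower in EB9 KD33 and 1 higher. Over all genes 33.7% rose and 44.2% fell in KD33 cells, 17% and 12.7% had such differences, and 7.2% and 7.96% such EB9 levels. Fgf5, the standard marker of that stage, read −3.25, −2.06, −2.89 and −3 in EB9 KD33 and −2.38, −1.82, −2.54 and −2.66 in EB9 controls, which overlapped. It was above background on every ES KD33 array and on no ES control array. It rose by 3.11 in KD33 cells and at least 22.7-fold in control cells. The fitted difference rests on those dim ES controls (−1.86, adjusted p = 0.00136; −0.7, adjusted p = 0.0622, with normexp and quantile normalisation). Otx2, a factor of epiblast and forebrain, rose by 1.5 against 0.51. Cdh2 (N-cadherin), which replaces E-cadherin as cells leave the epiblast, rose by 6.26 against 7.15. Foxd3 fell at least 9.9-fold.

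**Figure D4:**
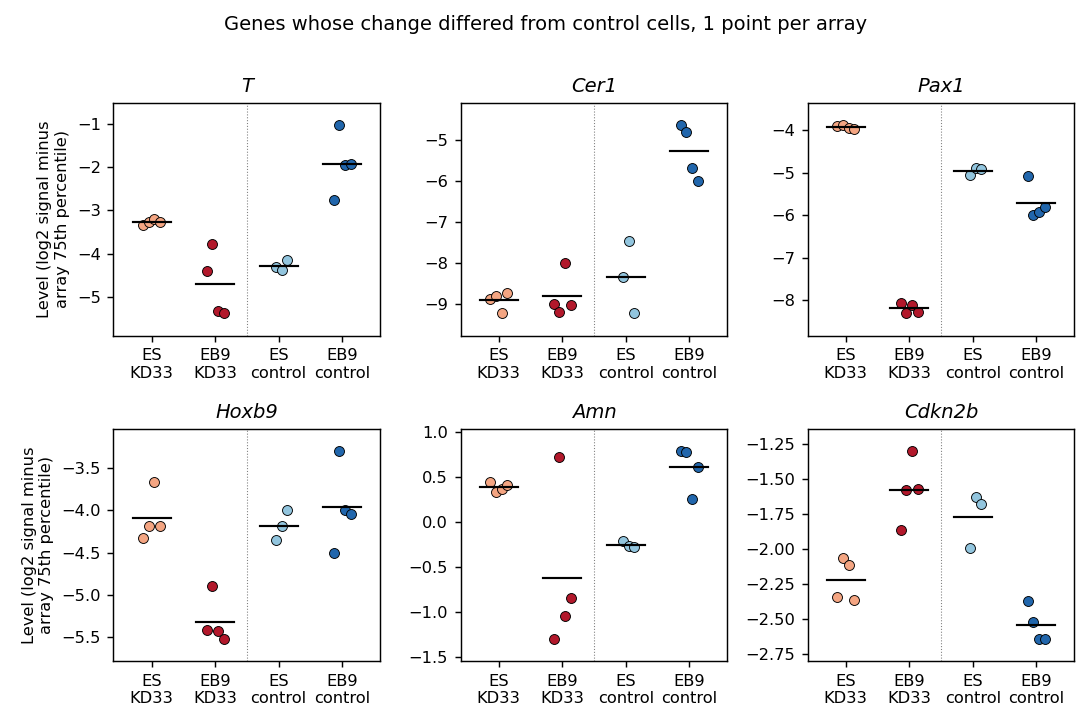
Level of 6 genes whose change differed between KD33 and control cells, in log2 signal minus the array's 75th percentile, with 1 point per array and a bar at the group mean; axes differ between panels. The means of T, Pax1, Hoxb9 and Amn went down from ES to EB9 in KD33 cells, Cdkn2b went up in KD33 and down in control cells, and Cer1 rose in control cells alone.

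Pax1, a factor of the sclerotome and pharyngeal pouches, read −3.89, −3.88, −3.95 and −3.96 in ES KD33 and −8.06, −8.3, −8.12 and −8.28 in EB9 KD33, where no array was above background. EB9 controls read −5.08, −5.98, −5.93 and −5.8 and were above background on all 4 arrays. The fall of at least 7.25-fold in KD33 cells stood against a change of −0.75 in control cells (difference −3.52, SE 0.23, adjusted p = 1.01e-06). Pou3f2 (Brn2), a neural factor, was another gene of this kind, at least 3.65-fold down in KD33 cells, but only 1 of 4 EB9 control arrays measured it.

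In the visceral endoderm 9 of 24 members ended lower in EB9 KD33 than in EB9 control and none higher, where 7.2% of all genes were lower. Amn (amnionless), a subunit of its protein uptake receptor, read 0.45, 0.33, 0.37 and 0.41 in ES KD33 and −1.3, 0.72, −1.04 and −0.84 in EB9 KD33, so EB9 KD33 2 lay above all ES KD33 arrays while the other 3 lay below them. Its change of −1 (SE 0.33) differed from the rise of 0.86 in control cells by −1.87 (SE 0.48, adjusted p = 0.0108). In endothelium 7 of 20 members ended lower and none higher, against the same 7.2%.

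**Figure D5:**
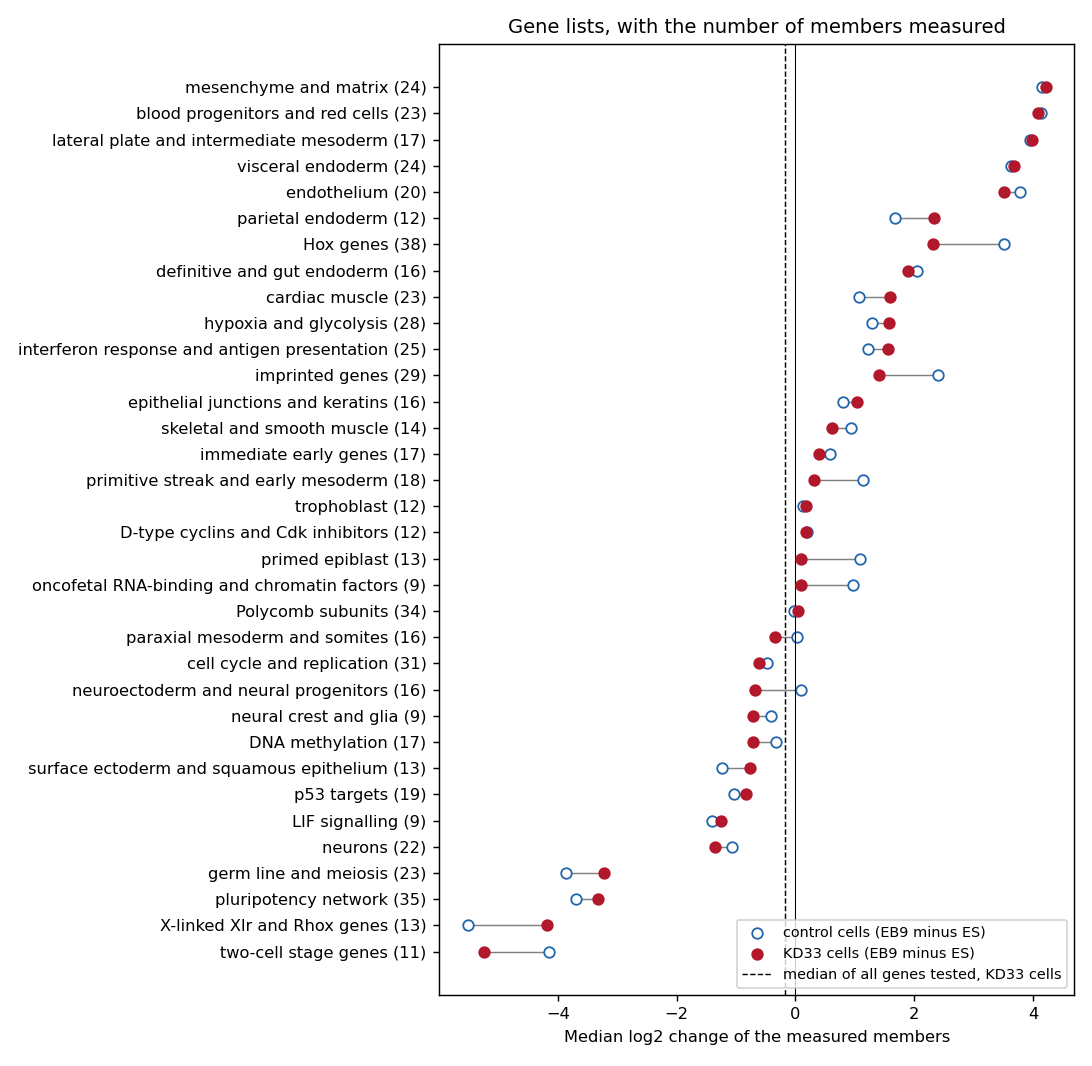
Median log2 change from ES cells to EB9 of the measured members of each gene list, whose number stands in brackets, in KD33 cells (filled) and control cells (open); the dashed line marks the median of all genes in KD33 cells (−0.18). Mesenchyme (4.21), blood (4.09) and lateral plate mesoderm (3.98) lay at the top in KD33 cells and the 2-cell genes (−5.25) at the bottom; the Hox genes stood at 2.31 against 3.51 in control cells.

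Hox genes, the collinear clusters that give position along the body and a textbook target of Polycomb, rose in 32 of 38 measured members of their list, which includes Cdx1, and fell in 5. The median change was 2.31 in KD33 cells (1.7 with 9 members at their bounds) and 3.51 in control cells. The change was smaller in KD33 cells, or more negative, for 24 of 38, and more positive for 1, against 17% and 12.7% of all genes. For 19 of those 24 the ES KD33 level was above the ES control level, and for 7 the EB9 KD33 level was below the EB9 control level. Altogether 20 of 38 were higher in ES KD33 than in ES control and 9 of 38 lower in EB9 KD33 than in EB9 control, against 22% and 7.2% of all genes.

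Members of the clusters showed each of these patterns. Hoxa11, of limb and trunk, rose at least 58.3-fold in KD33 cells, and its EB9 levels were not called different (−0.33, adjusted p = 0.333). Hoxb5 rose at least 16.3-fold. Hoxb9, a posterior gene, read −4.33, −4.19, −3.67 and −4.18 in ES KD33 and −5.42, −4.89, −5.43 and −5.52 in EB9 KD33, a fall without overlap. ES and EB9 controls (−4.35 to −3.99 and −4.5 to −3.3) overlapped. Its difference was −1.44 (SE 0.34, adjusted p = 0.00605). Hoxc13 fell by 4.23 and Cdx1, a caudal factor upstream of Hox genes, by 6.63 against 4.88 in control cells (difference −1.75, adjusted p = 0.00246).

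Most transcripts of the cell cycle fell in both kinds of cell. Of 31 replication and mitosis genes 23 fell and 3 rose, with a median change of −0.62, against 20 and 4 and −0.48 in control cells. The change was more negative in KD33 cells for 13, of which 10 were higher in ES KD33 than in ES control, and more positive for 1 (17% and 12.7% of all genes). Mybl2 (B-Myb) fell by 3.06, and Ccne1, the G1/S cyclin E1, by 2.62 against 2.02 (difference −0.6, adjusted p = 0.00286). In contrast Mki67, the member marked as key, rose by 0.51 in KD33 cells, and Rrm1 rose by 0.38.

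Regulators of G1 went separate ways. Ccnd2 (cyclin D2) read −0.53, −0.45, −0.49 and −0.54 in ES KD33 and 1.59, 1.72, 1.47 and 1.7 in EB9 KD33. ES controls were far lower, at −3.2, −3.28 and −3.36, and EB9 controls reached 2.08, 1.93, 1.82 and 1.96. The rises of 2.12 and 5.22 differed by −3.11 (SE 0.1, adjusted p = 3.15e-09), with EB9 KD33 lower at the end by −0.33 (adjusted p = 0.00755). Ccnd1 changed by −0.12 in KD33 cells and 0.9 in control cells (difference −1.01, adjusted p = 0.00582).

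The Ink4 inhibitors Cdkn2a and Cdkn2b, neighbours on chromosome 4 and classic targets of Cbx7, were both higher in EB9 KD33 than in EB9 control. Cdkn2b (p15) read −2.34, −2.06, −2.11 and −2.36 in ES KD33 and −1.86, −1.58, −1.3 and −1.57 in EB9 KD33. In controls it read −1.99, −1.63 and −1.68, then −2.37, −2.52, −2.64 and −2.64. It thus rose by 0.64 (SE 0.12) in KD33 cells and fell by 0.78 in control cells (difference 1.41, adjusted p = 0.000107). Cdkn2a (p16 and Arf) fell by 1.51 and 1.76, which were not called different (adjusted p = 0.288), and was higher in EB9 KD33 by 0.73 (adjusted p = 0.000992).

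Most genes on the list of hypoxia and glycolysis rose. Of 28 measured members 25 rose and 2 fell, with a median change of 1.58 against 1.29, and the change was more positive in KD33 cells for 11, where 12.7% of all genes were, and more negative for none. At the end 17 of 28 were higher in EB9 KD33 and none lower, where 7.96% of all genes were higher. Vegfa, the vascular growth factor that low oxygen induces, read 0.51, 0.12, 0.32 and 0.47 in ES KD33 and 2.84, 2.13, 2.55 and 2.85 in EB9 KD33, and 1.99, 1.69, 1.58 and 1.77 in EB9 controls. All EB9 KD33 arrays lay above all EB9 controls (difference of the changes 0.94, adjusted p = 0.00709). Ankrd37, a direct HIF target, rose by 4.29 against 3.68, and Car9, a carbonic anhydrase of hypoxic cells, fell by 4.18.

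Interferon genes rose in 15 of 25 measured members and fell in 5, where 33.7% of all genes rose and 44.2% fell. Ifit3, an antiviral effector, rose at least 104-fold, with EB9 KD33 arrays at 1.01, −1.43, 0.37 and 0.4, so slide 2 lay low here as it did in the globins. Psmb9, a subunit of the immunoproteasome, fell by 3.64.

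Of 19 measured targets of p53, 11 fell and 5 rose, and the change was more positive in KD33 cells for 8 and more negative for 1. All 8 were lower in ES KD33 than in ES control, and 2 of them were higher in EB9 KD33 than in EB9 control. Of all genes 44.2% fell, 33.7% rose, 12.7% had a more positive and 17% a more negative change, which also serve for the next 3 lists. Immediate early genes, which respond to signals within minutes, rose in 11 of 17 and fell in 3 (1 without ES KD33 1), with 9 differences more positive and 1 more negative. Oncofetal RNA-binding and chromatin factors rose in 4 and fell in 4 of 9 (2 fell with quantile normalisation), and 5 of the 9 had a more negative change in KD33 cells. Lin28a, which blocks maturation of let-7, fell by 0.88 in KD33 cells and changed by 0.22 in control cells (difference −1.1, adjusted p = 0.0135).

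Imprinted genes, expressed from 1 parental copy, rose in 18 of 29 and fell in 6, with medians of 1.4 in KD33 and 2.4 in control cells. The difference was more negative for 13 and more positive for 4, the latter a share near that of all genes. Of those 13, 12 were higher in ES KD33 than in ES control, and 4 were lower in EB9 KD33 than in EB9 control. Igf2, the fetal growth factor, rose at least 94.1-fold, and its neighbour H19 rose by 3.98. Dlk1 rose 109-fold from a higher start, and its EB9 levels were not called different (difference at the end 0.07, adjusted p = 0.715). Zim1, a zinc finger gene, rose at least 76-fold.

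Polycomb subunits moved in both directions. Of 34 measured, 16 rose and 16 fell, the latter a share near the 44.2% of all genes. Phc1, the Polyhomeotic subunit of ES cells, fell by 2.39 and Epop, an elongin-binding partner of repressive complex 2 in ES cells, by 2.45. Bcor and Yaf2, subunits of variant forms of complex 1, rose by 2.25 and 2.22, and Cbx2, a relative of Cbx7, by 0.63. Ezh2, the methyltransferase of complex 2, fell by 0.37. The differences from the control change ranged from −0.23 to 0.19 for these 6 genes and none was called. Over the list of 34, the change was called more positive in KD33 cells for 5 and more negative for 4. With a slide term these were 9 and 5. Of all genes 12.7% and 17% had such differences, without a slide term. Genes of DNA methylation fell in 9 of 17 and rose in 5, in both kinds of cell. Of all genes 44.2% fell and 33.7% rose in KD33 cells. Dnmt3l, the cofactor of DNA methylation in ES cells and germ cells, fell by 3.98.

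Among the 10 greatest positive differences were genes whose ES levels differed. Olfr1466, an olfactory receptor, read −6.16, −3.85, −3.81 and −5.31 in ES KD33 and 1.34, 2.07, 2.11 and 1.59 in EB9 KD33, against −0.85, 0.02 and 0.14 in ES controls. Its rise of 6.56 exceeded the 2.24 of control cells by 4.31 (SE 0.68, adjusted p = 0.000488), and the EB9 levels were not called different (−0.24, adjusted p = 0.808). DXBay18, an X-linked transcript, read −4.34, −4.3, −4.35 and −4.43 in ES KD33 against −0.23, −0.25 and −0.21 in ES controls, and rose by 1.2 where control cells fell by 2.91. Twist2, a mesenchymal factor, was the opposite case: it lay at −5.81 ± 0.26 in ES KD33, below background in ES controls, and at 1.4 ± 0.15 in EB9 KD33. It rose 148-fold in KD33 cells and at least 340-fold in control cells (difference −3.09, adjusted p = 6.92e-06), and the EB9 levels were not called different (−0.16, adjusted p = 0.649).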

How the data were processed

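The deposited files are raw array scans quantified by the authors (Feature Extraction version 10.7.3.1, per the file headers). The authors' processed intensity values are background-corrected and not scaled between arrays, per the file headers. The authors' deposited value table holds log2 values whose processing steps the sources used here do not give; its columns, which share 1 distribution, matched normexp (offset 50) with quantile normalisation, computed here, within 0.0153. Here, log2 processed intensity minus the 75th percentile of non-control features was used. Flagged features were dropped, repeated spots averaged, and a probe was kept if well above background on at least 3 arrays of a group (27250 of 39429 probes). RefSeq accessions named 26424 probes, symbols 3983, older symbols 826 and the file 8196; the brightest probe stood for a gene, and 79 genes had a missing value. Probe coordinates are mm9, promoter windows RefSeq on GRCm38.p6.

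Group means over all 15 arrays were fitted in limma 3.58.1 (R 4.3.3) with empirical Bayes, 11 residual and 1.61 prior degrees of freedom, two-sided. The number of arrays limits the precision. A fold "at least" sets the brighter mean against the lowest signal still above background. Same-numbered ES and EB9 KD33 arrays, which share a slide, correlated at 0.459, 0.306, 0.461 and 0.336 in their deviations. Some arrays of different number did so too, such as ES KD33 2 with EB9 KD33 3 (0.404). ES KD33 2 correlated at −0.59 with ES control 2, of the same number, and at 0.479 with ES control 3, of the same slide. The deviations thus follow the slide and do not show that numbers pair the samples. Slide and number were tried as a replicate block. ES controls 2, 3 and 4 lay on slides 1, 2 and 3.

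The members and gene lists were chosen with earlier results of these data known. Named genes are the 12 greatest rises and 12 greatest falls, the 10 greatest differences of change each way, marked key members and the 2 greatest rises and falls of each list, and every Cbx7 probe; a selection of them is printed. The 12 rises and 12 falls were ranked among called genes whose groups did not overlap. All arrays of the brighter group had to be well above background. The 10 differences each way were ranked among called differences. Predicted genes, clone names and LOC names were left out of these rankings. Spry4 and the unmeasured streak genes were named after their values were seen.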

Additional observations from a re-analysis of the deposited data

Results flagged for a closer look

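The change from ES cells to EB9 was tested for a difference between KD33 and control cells, and the genes below, all named in the text, were called (limma, adjusted over all 21184 genes). The values are log2 changes of KD33 cells minus those of control cells. The more positive changes in KD33 cells came to 0.63 for Zfp42, 0.85 for Klf4, 0.83 for Socs3, 1.71 for Stra8, 0.7 for Dazl, 3.27 for Xlr5a, 2.5 for Xlr5c and 1.07 for Gtsf1. They were 0.53 for Col1a1, 1.01 for Pdgfra, 1.28 for Afp, 0.99 for Otx2, 1.41 for Cdkn2b, 0.94 for Vegfa, 0.62 for Ankrd37 and 1.62 for Zim1. The more positive changes in KD33 cells came to 4.31 for Olfr1466 and 4.1 for DXBay18.

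The more negative changes in KD33 cells came to −1.1 for Lin28a, −1.87 for Ucp1, −0.8 for Thy1, −3.09 for Twist2, −1.11 for Myb, −0.78 for Hand1, −1.09 for Hand2 and −1.04 for Nkx2-5. The difference was −1.9 for Myl2, −1.03 for Acta2, −0.76 for Sox17, −1.54 for Cdx2, −1.87 for Amn, −1.13 for Trf, −0.79 for Plac1 and −3.8 for T. Others were −2.95 for Cer1, −1.43 for Gsc, −1.86 for Fgf5, −0.89 for Cdh2, −3.52 for Pax1, −0.65 for Nes, −0.71 for En2 and −0.8 for Gap43. Values stood at −1.75 for Cdx1, −1.54 for Hoxa11, −1.44 for Hoxb9, −3.11 for Ccnd2, −1.01 for Ccnd1, −0.6 for Ccne1, −1.05 for Dlk1 and −3.1 for Pou3f2. For Afp, Zim1, Hoxa11, Cer1, Ucp1, Xlr5a, Xlr5c, Twist2, Fgf5, Pax1 and Pou3f2 the difference rests in part on a group with no array above background, so its size is not exact; for Plac1 and Myl2 some arrays were not above it. The difference for Myl2 lost its call in 15 of 24 alternatives (adjusted p between 0.0514 and 0.0979). That for Afp fell to 0.43 (adjusted p = 0.0871) with normexp and quantile normalisation.

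In the cases that follow, 1 array stood apart from the other 3 of its group by Dixon's criterion at the 95% level, which chance meets in about 1 in 20 groups. Klf4 read −0.43 on EB9 KD33 1 and −0.21 to −0.17 on the others. Hbb-bh1 read 6.61 on EB9 KD33 2 and 7.36 to 7.5 on the others. Cdh5 read −4.75 on ES KD33 3 and −8.7 to −8.57 on the others. Actc1 read −8.9 on ES KD33 3 and −8.44 to −8.35 on the others. Afp read −8.72 on ES KD33 3 and −8.41 to −8.38 on the others. Cer1 read −7.98 on EB9 KD33 3 and −9.18 to −8.98 on the others. Gsc read −4.37 on EB9 KD33 2 and −5.37 to −5.25 on the others. Hoxa11 read −0.54 on EB9 KD33 1 and −0.84 to −0.8 on the others. Hoxb9 read −4.89 on EB9 KD33 2 and −5.52 to −5.42 on the others. Hoxc13 read −7.03 on EB9 KD33 1 and −5.7 to −5.66 on the others. Ccnd1 read 0.41 on EB9 KD33 2 and −0.12 to −0.1 on the others. Zim1 read −0.62 on EB9 KD33 2 and −0.31 to −0.26 on the others.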

How the results depend on the processing

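Of 232 results on named genes and gene lists, 217 were rated unchanged under every alternative tried. For a gene this meant the same direction and call. For a list it meant only that the number of members called stayed near the main number. With a slide term, for example, 26 rather than 23 cell cycle genes were called lower. With normexp background correction and quantile normalisation, 3250 genes fell at least 2-fold in KD33 cells, and the difference between the changes reached 2-fold for 311 genes (higher) and 172 (lower); the authors' table gave 3244, 310 and 169, and the cause was not tested. Leaving out each replicate gave 6973 to 7188 genes higher and 9052 to 9467 lower in KD33 cells (2-fold: 3862 to 3949 and 4783 to 4974), 6751 to 7079 and 8261 to 8965 in control cells (3777 to 3850 and 4480 to 4900), and 2320 to 2996 and 2950 to 3766 for the difference (599 to 859 and 417 to 518). The uncalled change of Cer1 in KD33 cells turned to −0.16 without EB9 KD33 3 and was 0.24 at most, without EB9 KD33 2. With the slide, which is the replicate number of the KD33 arrays, as a block, 7683 genes were higher and 10327 lower, and 3706 and 4976 for the difference; of 16503 calls 16479 were kept and 24 lost. Among named genes that block added the calls of Cbx7, Eomes and Spry4. Small counts of members called lower moved by 1 under some alternatives: to 2 for definitive endoderm and blood, 0 for endothelium, and 1 for hypoxia and parietal endoderm. The split of the called differences with a slide term, and leaving out single control arrays for the KD33 and control changes, were chosen after seeing the data. Genes not above background carry only a bound, which held for the dimmer group of 1642 called genes.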
